A study of Homo sapiens with 4 samples.

Results

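Glycolysis and hypoxia response genes were examined in TPC1, a human cell line established from papillary thyroid cancer, with and without stable overexpression of INAVA. The members were a fixed list of 33 genes, matched by symbol to the deposited table, which gives 13165 genes. Of these, 31 were listed, and CA9 and EGLN3 have no value analysed here. The members comprised 17 glycolytic enzymes, 7 transporters and regulators of the pathway, 8 other targets of the hypoxia-inducible factors (HIF), of which 6 were listed, and HIF1A itself.

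RNA was sequenced from 2 groups of 2 libraries. TPC1-Vector cells carried the empty pQCXIP retroviral vector, and TPC1-INAVA cells, labelled TPC1-C1orf106 after the older symbol of the gene, carried the vector with the INAVA coding sequence. Both had been infected, selected with 0.5 μg/mL puromycin for 2 weeks and grown in DMEM with fetal bovine serum. No low-oxygen treatment is given for either group, and whether each stable line is a pool or a clone is not given in the sources used here. Each gene has 1 deposited value for each group, as FPKM, a fragment count scaled to transcript length and to sequencing depth, in which both libraries are combined. The spread between libraries and the depth are therefore unknown, no value below has an SD, and no difference was tested. Since FPKM allows for length, levels can be set side by side between genes. C1orf106 was at 7.96 FPKM in TPC1-Vector against 123 FPKM in TPC1-INAVA, in the direction of the labels. Of the thyroid markers, the transcription factors PAX8 (60.1 and 55.7 FPKM) and FOXE1 (5.26 and 5.89 FPKM) were listed, whereas NKX2-1, TG and TSHR have no value analysed here. Of 5 epithelial markers, KRT7 (1.97 and 2.01 FPKM), KRT8 (23.4 and 10.5 FPKM) and KRT18 (140 and 212 FPKM) were listed, the last of which share 1 deposited position. Of 11 markers of fibroblasts and of blood and endothelial cells, COL1A1 (0.937 and 0.571 FPKM) and LUM (0.383 and 0.225 FPKM) were near or under 1 FPKM, CD68 was at 5.76 and 8.67 FPKM, and the others have no value analysed here. Whether these markers bear on the results below was not tested. In bulk RNA, fewer cells of a kind and less RNA per cell cannot be told apart.

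Glycolysis breaks glucose down to pyruvate in the cytosol, and lactate dehydrogenase can turn the pyruvate into lactate, which leaves the cell through monocarboxylate transporters. HIF-1 is a transcription factor of an oxygen-regulated alpha subunit, encoded by HIF1A, and a stable partner, ARNT. When oxygen is scarce the alpha subunit escapes hydroxylation by the EGLN enzymes and degradation through VHL, and HIF-1 switches on glucose uptake, most steps of glycolysis, angiogenic factors and genes of matrix and mitochondrial turnover. Cancer cells often run glycolysis fast in the presence of oxygen as well.

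Fold changes are given here as log2(FPKM + 0.5) in TPC1-INAVA minus that in TPC1-Vector, for the 12305 genes whose average over both groups was 0.5 FPKM or more, called the genes tested, although they were compared by fold change alone. This applied to 30 of the members, since ALDOC, at 0.423 and 0.500 FPKM, was under the limit. A gene is said to be past 1.3-fold when this value reaches log2 of 1.3 in either direction. Of the 30 members 1 was past 1.3-fold higher in TPC1-INAVA (3.33%), against 5.62% of all genes tested, and 2 were past 1.3-fold lower (6.67%), against 5.10% of all genes tested. The other 27 were within 1.3-fold. Of the members 15 were above 0 and 15 below, with a median of -0.0024, next to a median of 0.0033 over all genes tested. The list as a whole was thus close to the background of these libraries.

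**Figure D1:**
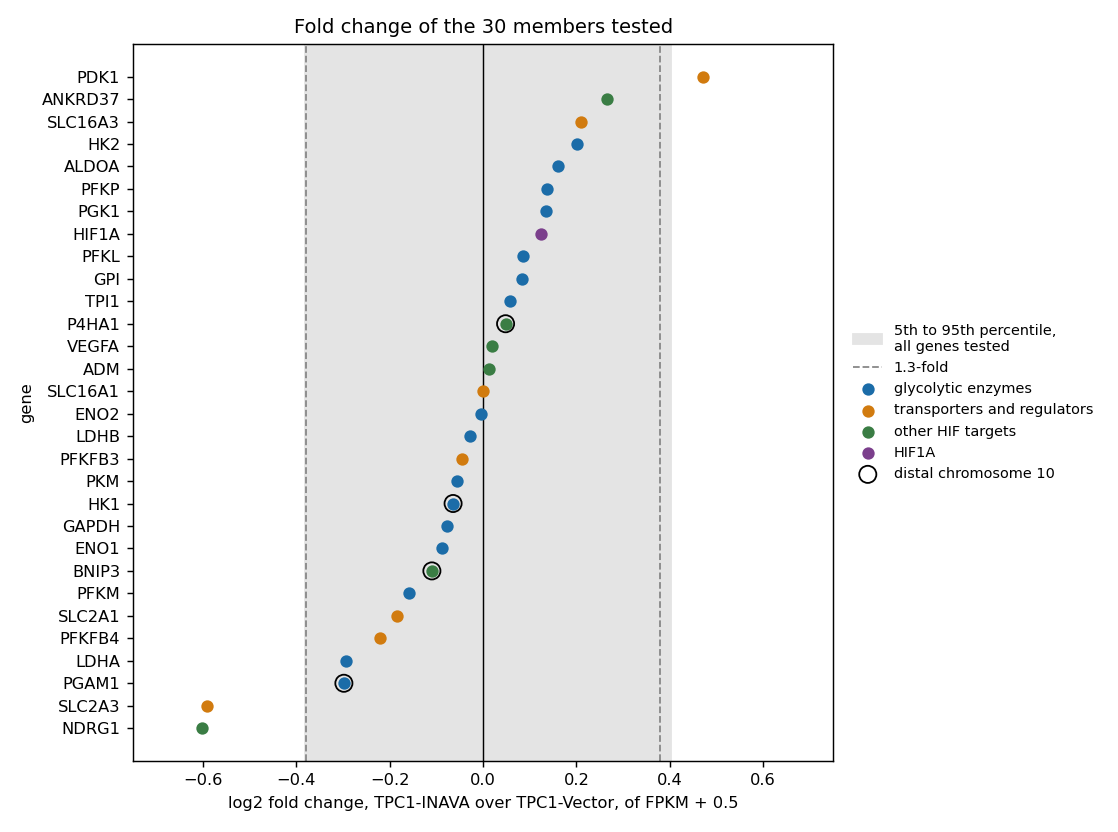
Log2 fold change of FPKM + 0.5, TPC1-INAVA over TPC1-Vector, for the 30 members tested, coloured by role, with dashed lines at 1.3-fold and grey from the 5th to the 95th percentile of all 12305 genes tested (-0.38 to 0.40). PDK1 lies right of the band, SLC2A3 and NDRG1 lie left of it, and the other 27 members lie inside the dashed lines. Rings mark the 4 members on distal chromosome 10, and near 0 the side of TPI1, GAPDH, ENO1 and SLC16A1 depended on the scaling.

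The glycolytic enzymes were among the most abundant messages of these cells, and none of the 16 tested was past 1.3-fold. Within 1.3-fold were 89.3% of all genes tested and 92.3% of those averaging 100 FPKM or more, so this count is near the background. GAPDH, which oxidises glyceraldehyde 3-phosphate, was at 3107 FPKM in TPC1-Vector against 2947 FPKM in TPC1-INAVA, the 5th highest mean level in the table. ENO1, an enolase, was at 2097 and 1972 FPKM. The pyruvate kinase gene PKM was at 1547 and 1489 FPKM, and LDHB, a lactate dehydrogenase subunit, was at 1073 and 1052 FPKM. With LDHA, these made 5 members among the 100 genes of highest mean level. Their changes were small, at -0.08 for GAPDH, -0.09 for ENO1, -0.06 for PKM and -0.03 for LDHB, and with quantile normalization GAPDH was at 0.17 and ENO1 at 0. Summed over the 16 enzymes, the level was 10794 FPKM in TPC1-Vector against 10307 FPKM in TPC1-INAVA.

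Other enzymes of the pathway were at lower levels. The aldolase ALDOA was at 526 FPKM in TPC1-Vector against 588 FPKM in TPC1-INAVA, with a log2 fold change of 0.16. TPI1, which interconverts the triose phosphates, was at 535 and 557 FPKM (0.06, or -0.05 with quantile normalization). PGK1, the first ATP-forming enzyme, was at 184 and 202 FPKM (0.14), and GPI, the glucose phosphate isomerase, was at 124 and 131 FPKM (0.08). All 4 differences were inside the range from the 5th to the 95th percentile of the genes averaging 100 FPKM or more, which ran from -0.26 to 0.38 over 782 genes.

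Within this class of abundant genes, PGAM1 and LDHA were low. PGAM1, the phosphoglycerate mutase that feeds enolase, was at 595 FPKM in TPC1-Vector against 484 FPKM in TPC1-INAVA, with a log2 fold change of -0.30, and 3.71% of the other genes at that level were lower. LDHA, the subunit known for favouring lactate formation, was at 718 and 587 FPKM, a log2 fold change of -0.29, with 4.10% of the other genes at that level lower. Both were near the low end of their class, yet within 1.3-fold. In GENCODE release 29, PGAM1 has 13 annotated pseudogenes that bear its name, LDHA has 6, LDHB has 3, GAPDH has 62 and BNIP3 has 39. Such pseudogenes exist for 14 of the 31 listed members. They were counted by name, their sequences were not compared, and whether reads were divided among such copies was not tested.

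**Figure D2:**
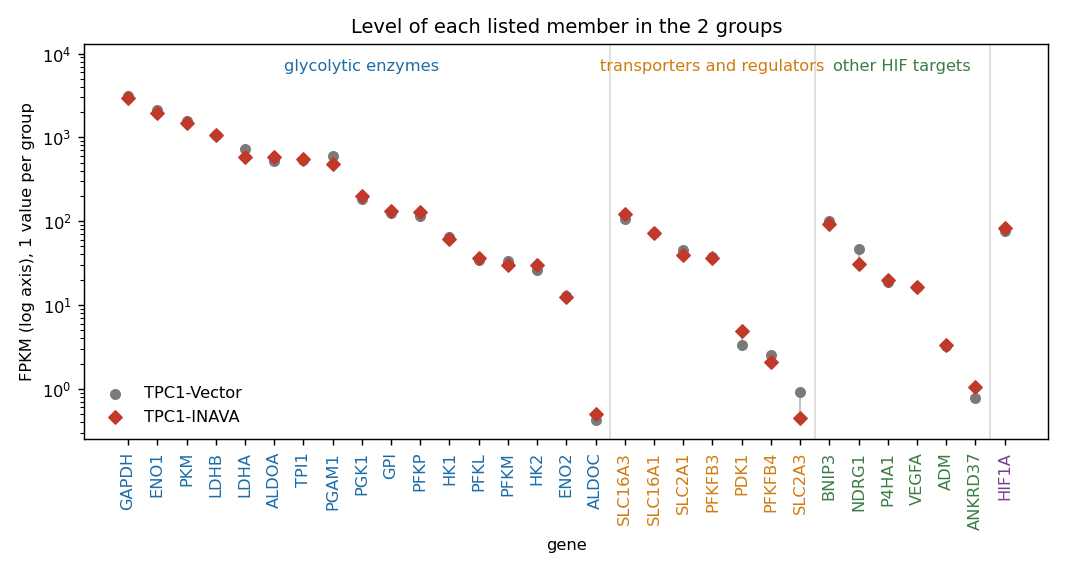
Level of the 31 listed members in FPKM on a log axis, 1 value per group, with TPC1-Vector as circles and TPC1-INAVA as diamonds, ordered by mean level within each role. The levels run from 3107 FPKM for GAPDH to under 1 FPKM for ALDOC and SLC2A3. The paired symbols lie close together for most members and are farthest apart for SLC2A3, NDRG1, PDK1 and ANKRD37.

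The isozymes of each step were unequal in level. Of the phosphofructokinases, which catalyse the committed step, PFKP was at 116 FPKM in TPC1-Vector against 128 FPKM in TPC1-INAVA, PFKL at 34.4 and 36.6 FPKM and PFKM at 33.9 and 30.3 FPKM. PFKP thus made up 63.0% of their summed FPKM in TPC1-Vector and 65.6% in TPC1-INAVA. ALDOA made up 99.9% of the aldolase messages in both groups and ENO1 99.4% and 99.3% of the enolase messages, with the neuronal enolase ENO2 at 12.7 and 12.6 FPKM. PFKM shares its deposited position with SENP1 and TPI1 shares its position with SPSB2, so values of these may be divided between overlapping genes.

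Hexokinase traps glucose in the cell as glucose 6-phosphate. HK1, the widely expressed form, was at 64.1 FPKM in TPC1-Vector against 61.3 FPKM in TPC1-INAVA, and HK2, the form known as a HIF target, was at 25.9 and 29.9 FPKM. The log2 fold changes were -0.06 and 0.20. HKDC1, a related gene that is no member, was at 59.7 and 48.4 FPKM (-0.30), near the level of HK1. The share of HK2 in the summed FPKM of these genes was 17.3% in TPC1-Vector and 21.4% in TPC1-INAVA, and that of HKDC1 was 39.8% and 34.7%.

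The balance of the lactate dehydrogenase subunits differed in the 1 value per gene and group, and its spread between libraries is unknown. LDHA over LDHB was 0.669 in TPC1-Vector and 0.558 in TPC1-INAVA, so LDHA made up 40.1% and 35.8% of the summed FPKM. LDHB was the more abundant subunit in both groups. The lactate exporter SLC16A3 (MCT4), a HIF target, was at 105 and 122 FPKM, a log2 fold change of 0.21, and SLC16A1 (MCT1), which carries lactate in either direction, was at 72.0 FPKM in both groups, its sign depending on the scaling. SLC16A3 made up 59.3% of their sum in TPC1-Vector and 62.8% in TPC1-INAVA. Higher LDHA and SLC16A3 are both features of the HIF response. Here their differences had opposite signs, both within 1.3-fold, and whether HIF activity differed was not tested.

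**Figure D3:**
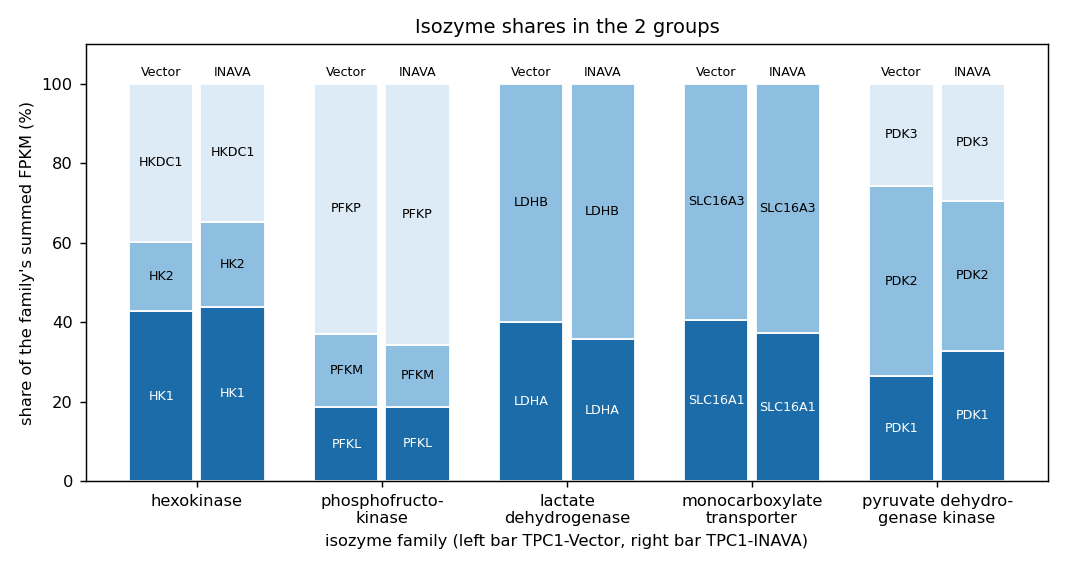
Share of each gene in the summed FPKM of its family (%), with the left bar of each pair for TPC1-Vector and the right bar for TPC1-INAVA. PDK1 went from 26.4% to 32.9% and PDK2 from 47.9% to 37.6%, LDHA from 40.1% to 35.8%, and PFKP made up 63.0% and 65.6% of the phosphofructokinases. Bars rest on 1 value per gene and group.

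PDK1 was the member past 1.3-fold higher. It encodes a pyruvate dehydrogenase kinase, which blocks the entry of pyruvate into the citric acid cycle and is a well known HIF target. Its level was 3.36 FPKM in TPC1-Vector against 4.85 FPKM in TPC1-INAVA, which is 1.44-fold, with a log2 fold change of 0.47. The related kinases PDK2 and PDK3, which are no members, were at 6.10 and 5.55 FPKM (-0.12) and at 3.28 and 4.37 FPKM (0.37). PDK1 thus made up 26.4% of the messages of these kinases in TPC1-Vector and 32.9% in TPC1-INAVA. The gene was at a low level next to the enzymes. Of the 5698 genes tested with a mean under 10 FPKM, 7.72% were past 1.3-fold higher.

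SLC2A3 and NDRG1 were the members past 1.3-fold lower. SLC2A3, the high-affinity glucose transporter GLUT3, was at 0.925 FPKM in TPC1-Vector against 0.446 FPKM in TPC1-INAVA, with a log2 fold change of -0.59. It was under 1 FPKM in both groups, and the counting error behind such a value is unknown. The widely expressed glucose transporter SLC2A1 (GLUT1) was at 44.6 and 39.2 FPKM (-0.18), and it made up 98.0% of the summed FPKM of SLC2A1 and SLC2A3 in TPC1-Vector and 98.9% in TPC1-INAVA. NDRG1, a stress-response gene strongly induced by hypoxia, was at 47.0 FPKM in TPC1-Vector against 30.8 FPKM in TPC1-INAVA, which is 1.53-fold lower, with a log2 fold change of -0.60. Of all genes tested, 1.28% had a value as low or lower. The genes within 2 Mb of NDRG1 had a median of -0.01 (6 genes), so its neighbours did not share the difference. These 2 members were also past 1.5-fold, where 3.70% of all genes tested lay in either direction, and PDK1 was not.

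The regulators of phosphofructokinase differed little. PFKFB3, which makes the allosteric activator of phosphofructokinase and is the main form in many tumours, was at 37.6 and 36.5 FPKM (-0.05). PFKFB4 was at 2.53 and 2.10 FPKM (-0.22). PFKFB3 made up 83.9% of the PFKFB messages in TPC1-Vector and 85.0% in TPC1-INAVA.

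The other HIF targets were divided, with 4 of 6 above 0 and 2 below. VEGFA, the angiogenic growth factor, was at 16.3 FPKM in TPC1-Vector against 16.5 FPKM in TPC1-INAVA. ADM, which encodes the vasodilator peptide adrenomedullin, was at 3.27 and 3.30 FPKM. The log2 fold changes of VEGFA and ADM were 0.02 and 0.01, and whether HIF activity differed was not tested. BNIP3, a mediator of mitophagy, was at 99.9 and 92.5 FPKM (-0.11), and P4HA1, a collagen prolyl hydroxylase subunit, was at 18.9 and 19.6 FPKM (0.05). ANKRD37, whose value was under or near 1 FPKM, was at 0.784 and 1.04 FPKM (0.27) and shares its deposited position with UFSP2. HIF1A itself, which shares its position with HIF1A-AS2, was at 75.6 and 82.5 FPKM (0.12). HIF-1 alpha is controlled mainly as a protein, which was not measured here.

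For the comparison of glycolytic enzymes with other HIF targets, the median log2 fold change was -0.02 over the 16 enzymes and 0.02 over the 6 targets, a difference of -0.03. The enzymes spread from -0.30 for PGAM1 to 0.20 for HK2, and the targets from -0.60 for NDRG1 to 0.27 for ANKRD37. The range of the targets enclosed that of the enzymes, and no test was possible with 1 value per group. The transporters and regulators had a median of -0.05 over 7 genes.

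Promoters are shown for PDK1 and ANKRD37, the members with the largest higher values among those at 1 FPKM or more in the higher group, and for LDHA and PGAM1, the next lowest after NDRG1. No window of NDRG1, SLC2A3, VEGFA or SLC16A1 was used here. They come from RefSeq on GRCh38.p14 and are windows of 300 bases around an annotated start, mostly upstream of it. Capitals mark the core of the HIF response element, ACGTG or GCGTG, on either strand, with overlapping matches counted once. Where a gene had 2 windows (PDK1 and LDHA), the one with more matches is shown.
PDK1 (chr2:172555840-172556139, forward strand): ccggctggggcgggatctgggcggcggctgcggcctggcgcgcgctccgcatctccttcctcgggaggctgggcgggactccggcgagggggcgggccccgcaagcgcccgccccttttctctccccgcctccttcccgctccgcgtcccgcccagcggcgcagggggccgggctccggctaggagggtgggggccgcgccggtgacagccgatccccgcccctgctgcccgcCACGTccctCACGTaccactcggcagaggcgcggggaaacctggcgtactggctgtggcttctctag
ANKRD37 (chr4:185396591-185396890, forward strand): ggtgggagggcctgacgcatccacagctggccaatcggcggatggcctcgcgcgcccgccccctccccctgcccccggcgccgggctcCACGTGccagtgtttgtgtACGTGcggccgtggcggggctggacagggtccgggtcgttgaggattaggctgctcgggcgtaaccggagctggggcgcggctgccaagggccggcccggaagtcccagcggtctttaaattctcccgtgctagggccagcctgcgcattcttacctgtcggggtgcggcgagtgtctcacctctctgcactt
LDHA (chr11:18394313-18394612, forward strand): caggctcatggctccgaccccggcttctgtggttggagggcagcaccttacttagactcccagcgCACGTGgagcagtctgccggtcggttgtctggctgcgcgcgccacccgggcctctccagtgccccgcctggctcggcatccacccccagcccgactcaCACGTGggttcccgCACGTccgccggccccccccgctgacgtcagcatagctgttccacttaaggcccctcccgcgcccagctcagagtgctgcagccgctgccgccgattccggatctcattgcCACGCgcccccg
PGAM1 (chr10:97427568-97427867, forward strand): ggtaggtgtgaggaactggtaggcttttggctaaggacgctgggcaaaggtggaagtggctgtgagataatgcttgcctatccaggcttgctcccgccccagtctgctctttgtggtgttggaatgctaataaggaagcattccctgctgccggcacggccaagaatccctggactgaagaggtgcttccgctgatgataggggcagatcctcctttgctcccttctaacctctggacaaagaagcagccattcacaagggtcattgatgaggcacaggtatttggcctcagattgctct
The LDHA window held 4 matches, the windows of PDK1 and ANKRD37 held 2 each, and that of PGAM1 held 0. The PGAM1 window lies inside the gene, downstream of its deposited start at 97426270. The region at that start was therefore not searched, and the count does not describe it. Promoter windows were found for 29 of the 33 members, 56 windows in all. At least 1 match was present in 37 of them (66.1%), against 61.2% of the 13533 windows of genes tested here and 48.4% of all 35116 windows. For ACGTG alone the shares were 39.3%, 25.6% and 21.4%. Counted by gene, 27 of 29 members (93.1%) had a match in at least 1 window, against 71.1% of the 9238 genes tested that have windows, and 62.1% against 32.9% had ACGTG. The 29 include CA9, EGLN3 and ALDOC, which are not among the genes tested. Members were also listed partly for being HIF targets, so these shares are no independent result. The members have 56 windows over 29 genes and the genes tested 13533 over 9238, so the members have more windows per gene, and shares by gene grow with that number. These letters are common in promoters, and a match does not show that HIF binds there.

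The position of the members in the genome was examined next, since a long stretch of chromosome 10 differed between these groups. On chromosome 10 past 58 Mb, 316 of 338 genes tested were below 0, with a median log2 fold change of -0.32, against 0.0084 for the 11967 other genes. HK1 (69270000 to 69401881, hg38), P4HA1 (73007222 to 73096974), PGAM1 (97426270 to 97433441) and BNIP3 (131967683 to 131982013) lie there. The genes within 2 Mb of these 4 members, counting those that averaged 1 FPKM or more, had medians of -0.32 for HK1 (30 genes), -0.39 for P4HA1 (34 genes), -0.34 for PGAM1 (30 genes) and -0.32 for BNIP3 (12 genes). For the 25 other members with enough neighbours, such medians lay between -0.07 and 0.16.

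The 4 members differed in how close they were to their surroundings. PGAM1, at -0.30, was 0.04 above the median of its neighbours. P4HA1, at 0.05, was 0.44 above its neighbours, and 320 of the 338 genes of the stretch were lower. HK1 was 0.25 above its neighbours, with 91.1% of the stretch lower, and BNIP3 was 0.21 above, with 87.2% lower. For PGAM1 56.4% of the stretch was lower, so all 4 members were above most genes of the stretch, PGAM1 by the least. HK1 and HKDC1 lie in tandem with 2440 bases between their deposited positions, and the log2 fold change was -0.06 for HK1 but -0.30 for HKDC1. Why the stretch differed was not tested. Without these 4 members, the median of the glycolytic enzymes was 0.03 and that of the other HIF targets 0.02, so the difference between these medians was 0.01, with the opposite sign to that over all of them.

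**Figure D4:**
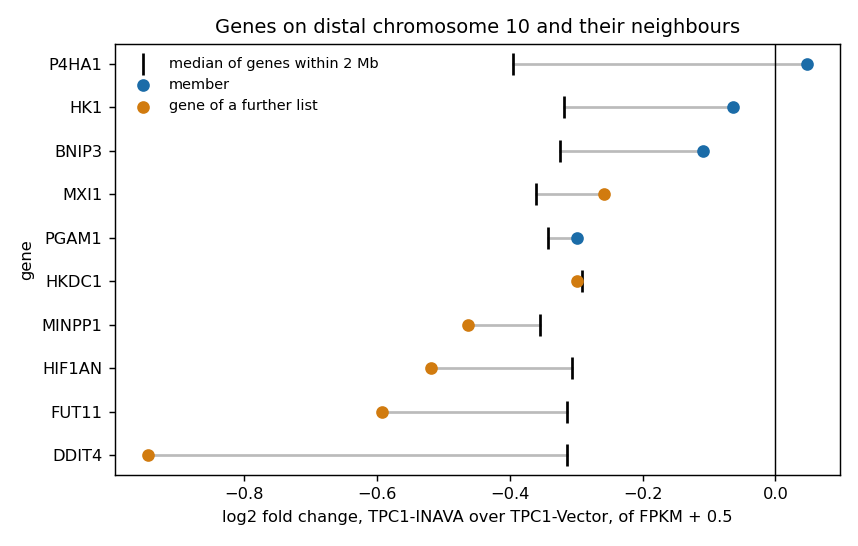
Log2 fold change of FPKM + 0.5, TPC1-INAVA over TPC1-Vector, for the 10 tested genes of all lists on distal chromosome 10 (points, members in blue and genes of further lists in orange), each with the median of the genes within 2 Mb (bars). P4HA1, HK1 and BNIP3 lie right of their neighbours by 0.44, 0.25 and 0.21, PGAM1 lies beside them, and DDIT4 lies farthest left at -0.94.

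A further 35 hypoxia-inducible genes outside the members were examined for comparison, of which 32 were tested. In TPC1-INAVA 3 of them were past 1.3-fold higher (HMOX1, STC2 and P4HA2) and 5 lower (CA12, DDIT4, FUT11, VLDLR and IGFBP3), with a median of 0.03. The lower ones made up 15.6% of the list, against 5.10% of all genes tested, and the higher ones 9.38%, against 5.62%. Of the 5 lower genes 2 lie on chromosome 10 past 58 Mb, where 39.1% of all genes were past 1.3-fold lower. CA12, a membrane carbonic anhydrase related to CA9, was at 17.9 FPKM in TPC1-Vector against 7.07 FPKM in TPC1-INAVA, with a log2 fold change of -1.28. DDIT4, an inhibitor of mTORC1 signalling, was at 54.3 and 28.0 FPKM (-0.94), and FUT11, a fucosyltransferase, was at 17.5 and 11.5 FPKM (-0.59). DDIT4 and FUT11 lie on chromosome 10 past 58 Mb, where the neighbours of both had a median of -0.31, and CA12 does not (-0.02 over its 25 neighbours). HMOX1, a haem-degrading enzyme that also answers to oxidative stress, was at 63.1 and 86.7 FPKM (0.46). These genes were divided in direction, as were the members.

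The HIF subunits and their regulators, 14 tested of 15, ranged from -0.52 to 0.55 with a median of 0.04. EPAS1, the HIF-2 alpha subunit, was at 10.5 and 11.3 FPKM (0.09), and ARNT was at 15.6 and 13.6 FPKM (-0.19). The oxygen sensors EGLN1 and EGLN2 were at 20.6 and 22.2 FPKM (0.10) and at 38.8 and 42.8 FPKM (0.14). VHL, which marks the alpha subunits for degradation, was at 18.0 and 14.7 FPKM (-0.28). Past 1.3-fold were CITED2, which competes with HIF for its coactivators, at 48.4 and 71.3 FPKM (0.55), and HIF1AN, the asparaginyl hydroxylase that blocks the same contact, at 18.4 and 12.7 FPKM (-0.52). That is 7.14% of the list higher and 7.14% lower, against 5.62% and 5.10% of all genes tested, so these counts are near the background. HIF1AN lies on chromosome 10 past 58 Mb, with a median of -0.31 among its neighbours.

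P4HA2, VLDLR, EGLN2 and PDK2 each share a deposited position with another gene. Across all further lists, 6 tested genes lie on that part of chromosome 10, and 4 of them were past 1.3-fold lower (DDIT4, FUT11, HIF1AN and MINPP1), next to 39.1% of all genes there. Elsewhere 6 of 79 were past 1.3-fold lower (7.59%), next to 4.14% of all genes elsewhere. Of the members, 0 of 4 on this stretch and 2 of 26 elsewhere were past 1.3-fold lower.

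**Figure D5:**
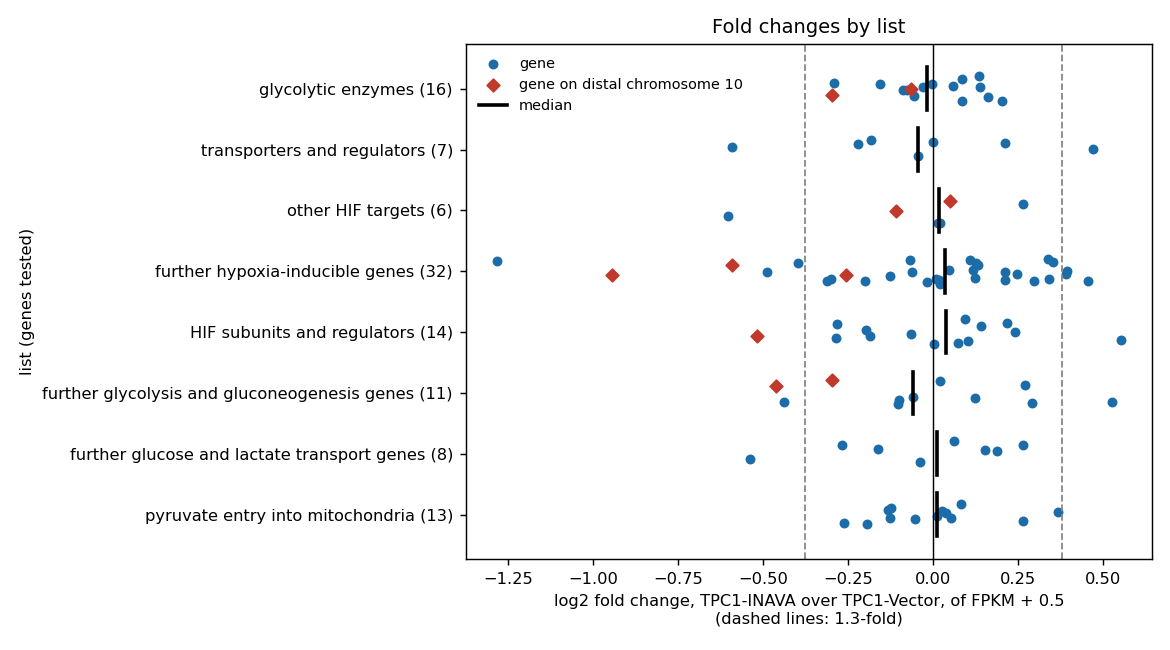
Log2 fold change of FPKM + 0.5, TPC1-INAVA over TPC1-Vector, for each tested gene of the member groups and of 5 further lists (the pentose phosphate list is not shown), with the median as a black bar, dashed lines at 1.3-fold and genes on distal chromosome 10 as red diamonds. Medians of the lists shown lie between -0.06 and 0.04, and the lowest values shown belong to CA12 and DDIT4. No glycolytic enzyme is past 1.3-fold, and 89.3% of all genes tested are within it.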

How the data were processed

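The deposited table holds FPKM, 1 value for a gene in each group of 2 libraries, as the authors computed it. The submitters' processing notes name hg38, CASAVA, Cufflinks 2.1.1 and Cuffdiff, and the aligner and the annotation are not given in the sources used here. The table also holds the authors' log2 ratio of the groups, its direction, a p-value and a q-value, which were not used. Without values per library or counts, no test was run, and the limma fit foreseen for values per library could not be made.

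Genes that averaged 0.5 FPKM or more were kept, 0.5 was added before taking log2, and a difference of 1.3-fold was counted. Members and lists were chosen with earlier results of these data known. Named were all members, C1orf106 and, of each further list, up to 3 genes per direction at least 1.5-fold apart and at 1 FPKM or more. Other genes of these lists were named after their values were seen. Neighbours were genes within 2 Mb at a mean of at least 1 FPKM (at least 5). Deposited starts count from 0 and were raised by 1. The positions of 30 of the 31 listed members overlapped the gene of that name in GENCODE release 29, and GPI was listed on an alternate sequence. The analysis in Python 3.11.15 (numpy 2.4.6, pandas 2.3.3, matplotlib 3.10.9) was tested on simulated data. Some list genes are not reported here. Other pseudocounts, filters and scalings were tried.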

Additional observations from a re-analysis of the deposited data

How the results depend on the processing

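No paired analysis was possible because the table has 1 value per group, and leaving out single libraries was not run for the same reason. With the threshold at 1.5-fold, 0 members were higher and the same 2 were lower. With a mean of at least 1 FPKM, 1 member was lower, since SLC2A3 was then not tested. With 0 in place of the pseudocount, which was added as an alternative after seeing the data, 2 members were past 1.3-fold higher, ANKRD37 (0.41) joining PDK1. With ACGTG alone, 22 of 56 promoter windows held a match, as only this motif was searched. PDK1 ranged from 0.42 to 0.53, NDRG1 from -0.62 to -0.59 and SLC2A3 from -1.05 to -0.41 over the pseudocounts, filters and scalings. Under quantile normalization GAPDH (0.17) and TPI1 (-0.05) changed sign and ENO1 was at 0, and SLC16A1 was below 0 under quantile and median-of-ratios scaling. The medians of enzymes and of other HIF targets moved by at most 0.1 in these settings, although their difference went from -0.03 to 0.01 without the members on chromosome 10, as did the neighbour medians within 5 Mb. The depth behind the values is unknown, which limits weak genes such as SLC2A3 and ANKRD37 most.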

Other observations

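The routes that branch from glycolysis were looked at as lists. In the pentose phosphate pathway, PGD, an NADPH-forming enzyme, was at 81.7 FPKM in TPC1-Vector against 70.2 FPKM in TPC1-INAVA (-0.22), TKT at 296 and 266 FPKM (-0.15) and TALDO1 at 206 and 191 FPKM (-0.10), while RPIA was at 22.8 and 24.5 FPKM (0.10). TIGAR, a phosphatase known for directing glucose into this pathway, was at 5.08 and 7.52 FPKM (0.52). No value here has a replicate check.

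Of 13 genes of pyruvate entry into mitochondria, 0 were past 1.3-fold, where 5.62% of all genes tested were past it higher and 5.10% lower, so a count of 0 is close to the background. Their median was 0.01, and PDK3, at 0.37, was just inside the threshold. Of 8 further glucose and lactate transport genes tested, 1 was past 1.3-fold lower, SLC16A4, at 2.28 and 1.41 FPKM (-0.54). BSG, the chaperone of SLC16A1 and SLC16A3 at the cell surface, was at 346 and 394 FPKM (0.19). Of 11 further genes of glycolysis and gluconeogenesis tested, 2 were past 1.3-fold lower, MINPP1 (-0.46) on chromosome 10 past 58 Mb and PCK2, the mitochondrial phosphoenolpyruvate carboxykinase, at 15.7 and 11.5 FPKM (-0.44), and 1 was higher, TIGAR. These genes were named after their values were seen.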
